A study of Homo sapiens with 183 samples.

Results

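CDK1 is the cyclin-dependent kinase that drives entry into mitosis. Cyclins B and A bind it, CDC25 phosphatases remove the phosphates that WEE1 and PKMYT1 place on it, and CDKN1A (p21) holds CDKs back. Cells short of CDK1 activity are known to stop in G2, the phase in which the genes for mitosis are transcribed. The transcriptome after CDK1 knockout was measured here in 8 libraries labelled sgCDK1, 2 in each of AsPC-1, T3M-4, BxPC-3 and CFPAC-1, out of 183 libraries in the whole series. They were chosen by their labels alone and compared with the 16 libraries labelled sgRosa of the same experiments, 4 in each line. All 4 are established human pancreatic ductal adenocarcinoma lines, of which AsPC-1 served as a classical and T3M-4 and BxPC-3 as basal-like models. All cells stably expressed Cas9 and carried an sgRNA vector, RNA was taken on day 5, and sgRosa cuts the ROSA26 locus as a control for cutting. A further 8 libraries of these experiments, labelled sgRpa3, carry a guide against RPA3, a subunit of the single-stranded DNA binding complex needed for replication, and gave a second comparison. Each population is a pool of infected cells. The study lists a single guide against CDK1 and against RPA3, and 2 against ROSA26. The labels do not say which guide a library carries, so the sgRosa groups may mix guides. Effects of the CDK1 guide at other sites cannot be told apart from loss of CDK1. Nothing in the labels says that the libraries of a group came from separate infections, so the p-values measure the spread between these libraries, which may be technical.

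The values are TPM (transcripts per 1000000), a share of all transcripts, so read depth is unknown. Of 19875 gene names, the 10851 with a mean of at least 1 TPM in all 4 lines were tested. Differences are on the scale of log2(TPM + 1), which understates the change of low genes. A value after ± is the standard error of a difference, which is not given for every gene. An adjusted p under 0.05 is the threshold throughout. In these bulk samples fewer cells of a kind and less RNA per cell cannot be told apart. Of 8 epithelial markers KRT8 (1361 to 7892 TPM) and KRT19 (2099 to 4774 TPM) were high in every library, while KRT7 went as low as 3.03 TPM and MUC1 as low as 7.74 TPM. The summed level of 12 markers of other cell types ran from 9.61 to 122 TPM in sgRosa and from 17.9 to 130 TPM in sgCDK1 libraries, and CD3E, CPA1, INS and GCG had a median of 0. The sgRosa libraries of T3M-4 replicate 4 and CFPAC-1 replicate 2 stood apart from their groups.

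The targeted transcript served as a check of the labels. CDK1 lies at chr10:60778331-60794852 of GRCh38. Its level in T3M-4 was 142, 128, 120.0 and 131 TPM in sgRosa and 40.2 and 53.1 TPM in sgCDK1 libraries. In BxPC-3 it was 160.3, 126, 130.2 and 136 TPM against 86.7 and 93.2 TPM. The groups did not overlap in either line, with log2 differences of -1.47 ± 0.12 (limma adjusted p = 7.39e-06) and -0.61 ± 0.09 (limma adjusted p = 0.000653). In AsPC-1 the sgRosa libraries held 156, 141, 155 and 135 TPM and the sgCDK1 libraries 122 and 134 TPM. Both lay below the lowest control, and the difference did not pass (-0.19 ± 0.10, limma adjusted p = 0.198). A Cas9 cut acts on the gene and need not lower its mRNA, so the size of a fall does not grade the knockout.

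CFPAC-1 showed no fall of CDK1 past the threshold in the libraries labelled sgCDK1. CDK1 was at 209, 206, 209 and 236 TPM in its sgRosa libraries and at 194 and 207 TPM in the libraries labelled sgCDK1, which overlap them (-0.10 ± 0.09, limma adjusted p = 0.667). In the CFPAC-1 libraries labelled sgRpa3 it was at 81 and 91.9 TPM, below every sgRosa library (-1.31 ± 0.09, limma adjusted p = 7.57e-07). Lower CDK1 was not confined to sgCDK1 in other lines either, since the sgRpa3 libraries held 81 and 115 TPM in T3M-4 and 95.5 and 106 TPM in BxPC-3. RPA3 itself was at 30.3 and 31.7 TPM in the CFPAC-1 libraries labelled sgRpa3 and at 27.9 and 32.7 TPM in those labelled sgCDK1, against 34.3, 33.2, 37.4 and 45.7 TPM in sgRosa. In the CFPAC-1 libraries labelled sgCDK1 no gene passed the threshold by limma (0 of 10851, with 1292 at an unadjusted p under 0.05), whereas 1239 did in those labelled sgRpa3 (836 higher, 7.7%, and 403 lower, 3.71%). Across genes, the log2 differences of the CFPAC-1 libraries labelled sgCDK1 had a Pearson's r of 0.01, 0.31 and 0.01 with the sgCDK1 differences of AsPC-1, T3M-4 and BxPC-3 in turn. Those labelled sgRpa3 had 0.18, 0.51 and 0.26 (10851 genes, which are not independent replicates). They were not correlated with the sgRpa3 differences of the other lines, so a response shared by both knockouts was not tested. The labels were kept as given, a swap of labels was not tested, and the main counts over 4 lines are given with and without CFPAC-1. Over all 4 lines CDK1 was lower in sgCDK1 (-0.59 ± 0.12, limma adjusted p = 0.00405, two-sided exact permutation within lines p = 3.95e-05). Without CFPAC-1 the difference was -0.76 ± 0.14, limma adjusted p = 0.00154, with an exact permutation p of 0.000296, the smallest that 3375 arrangements allow.

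**Figure D1:**
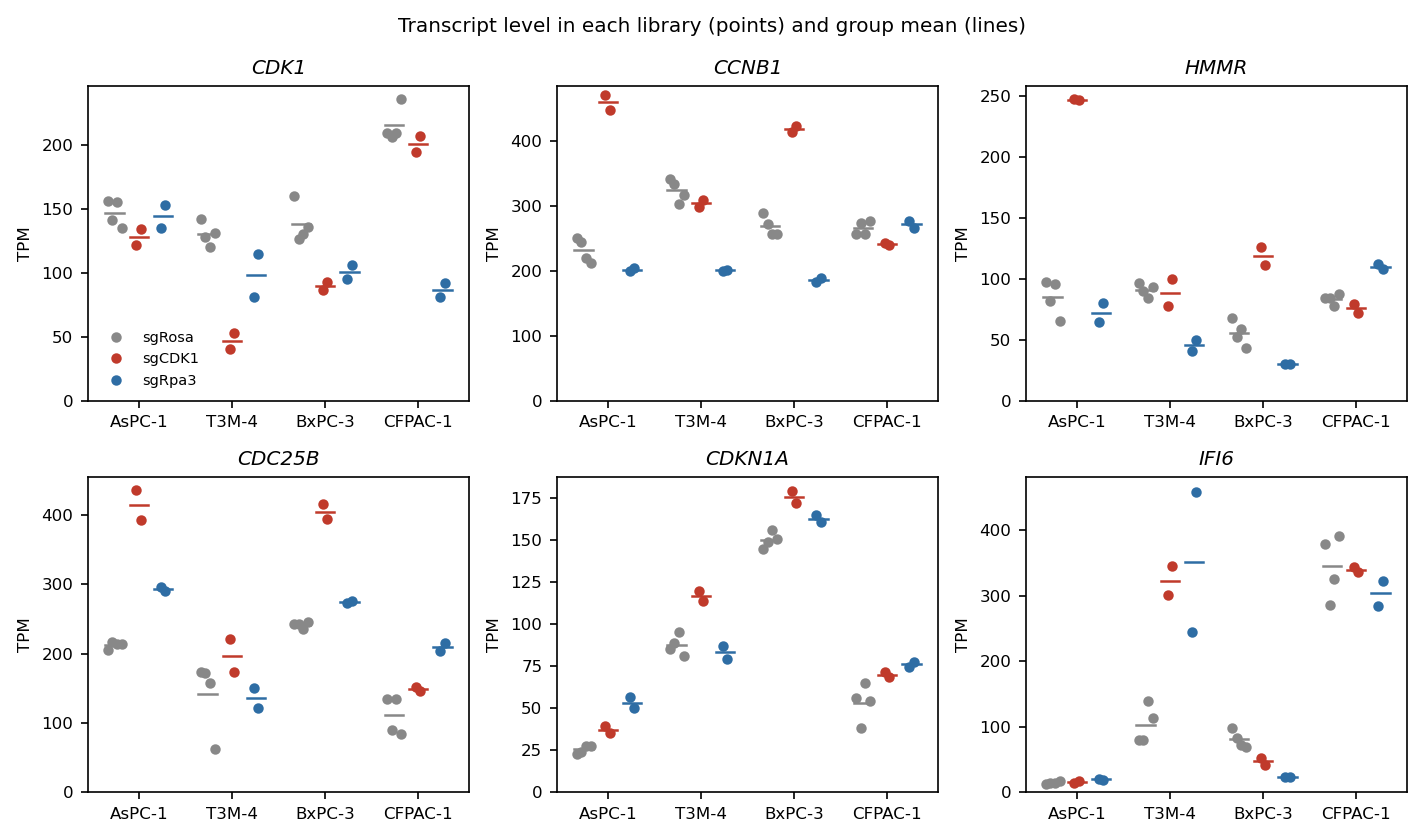
Each point is the TPM of 1 library and each short line a group mean, for 6 genes in 4 lines (sgRosa, sgCDK1 and sgRpa3 as labelled). CDK1 is lowest in the T3M-4 sgCDK1 libraries (40.2 and 53.1 TPM), CCNB1 and HMMR are above their sgRosa libraries in the sgCDK1 libraries of AsPC-1 and BxPC-3, and IFI6 is in T3M-4.

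Mitotic genes were higher in sgCDK1 in AsPC-1 and BxPC-3. Cyclin B1 (CCNB1), the main mitotic partner of CDK1, was at 251, 245, 220.1 and 213 TPM in AsPC-1 sgRosa and at 471 and 449 TPM in sgCDK1 (0.99 ± 0.09, limma adjusted p = 1.94e-06). BxPC-3 held it at 290.1, 272, 257 and 258 TPM against 415 and 424 TPM (0.64 ± 0.06, limma adjusted p = 7.09e-06). The sgCDK1 libraries lay above all controls in both, as they did for 31.3% of all genes tested in AsPC-1 and 16.7% in BxPC-3. In T3M-4 CCNB1 was at 342, 335, 304 and 317 TPM against 299 and 309.8 TPM, which overlap (-0.09 ± 0.07, limma adjusted p = 0.369). The CFPAC-1 libraries labelled sgCDK1 held 243 and 241 TPM against 257, 275, 257 and 278 TPM. The difference between lines passed (limma F test adjusted p = 7.47e-07). CCNB2, a second B-type cyclin, rose in AsPC-1 (0.70 ± 0.10, limma adjusted p = 0.000109) and BxPC-3 (0.75 ± 0.09, limma adjusted p = 4.87e-05), and was at -0.02 in T3M-4 and -0.02 in CFPAC-1.

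With line as a block, 1346 of 10851 genes (12.4%) passed across the 4 lines by limma, 1017 higher in sgCDK1 (9.37%) and 329 lower (3.03%). Without CFPAC-1 it was 1423 genes (13.1%), 997 higher (9.19%) and 426 lower (3.93%). After scaling the libraries by the median of ratios the split was 768 higher and 683 lower, so the excess of rises depends on the scaling. Leaving out AsPC-1 left 237 genes, and none passed with the 4 line differences as the replicates (0 by limma, 876 at an unadjusted p under 0.05). By line, 1825 genes passed in AsPC-1 (16.8%, 1088 higher and 737 lower), 1624 in T3M-4 (15.0%, 1149 higher and 475 lower, the latter 4.38%) and 565 in BxPC-3 (5.21%, with 340 or 3.13% higher and 225 or 2.07% lower). T3M-4 turned to 769 higher and 1016 lower after scaling, and the median of all its genes lay at 0.12, against which its differences should be read. The T3M-4 count fell to 3 when only its sgCDK1 and sgRosa libraries were fitted, without the other knockouts of the experiment that share the estimate of spread.

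The overlap between lines was uneven. The log2 differences of AsPC-1 and BxPC-3 had a Pearson's r of 0.35 across the 10851 genes, those of AsPC-1 and T3M-4 0.11, and those of T3M-4 and BxPC-3 0.01. AsPC-1 and BxPC-3 shared 243 called genes, 13.3% of the AsPC-1 and 43.0% of the BxPC-3 calls (5.21% and 16.8% of all genes passed in BxPC-3 and AsPC-1), 228 of them with the same sign. AsPC-1 and T3M-4 shared 366, 20.1% and 22.5% of each (15.0% and 16.8% of all genes passed in T3M-4 and AsPC-1). Of these, 152 had opposite signs. T3M-4 and BxPC-3 shared 150, 9.24% and 26.5% of each (5.21% and 15.0% of all genes passed in BxPC-3 and T3M-4). Of these, 102 had the same sign. In 3 lines 32 genes passed as higher and 6 as lower. The limma F test of a difference between lines passed for 1845 genes (17%), for 1767 (16.3%; 33.8% at an unadjusted p under 0.05) without CFPAC-1 and for 353 without AsPC-1.

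Among the other partners, the phosphatase CDC25B was at 205, 216, 214 and 214 TPM in AsPC-1 sgRosa and 435 and 392 TPM in sgCDK1. In BxPC-3 it was at 243, 243, 235 and 246 TPM against 415 and 394 TPM. Both pairs of groups were apart. In T3M-4 CDC25B was at 173, 172, 158 and 62.1 TPM against 221 and 173 TPM, the lower sgCDK1 library standing level with the highest controls. It rose over the 4 lines (0.68 ± 0.13, limma adjusted p = 0.00276; 0.76 without CFPAC-1). Of the 19 partners and activators tested, 5 rose and 3 fell across 4 lines, and 5 rose and 2 fell without CFPAC-1, beside 9.37% and 3.03% of all genes. It was 3 to 7 rises without single libraries, with 3 without any 1 of the 4 sgCDK1 libraries of AsPC-1 and BxPC-3. Besides CCNB1, CCNB2 and CDC25B, the rises were BORA (0.23), a cofactor of Aurora A in activating PLK1, and FZR1 (0.28), an activator of the anaphase-promoting complex. The falls were CCNH (-0.19) and MNAT1 (-0.21), both of the CDK-activating kinase, and ENSA (-0.13), a PP2A inhibitor. By line, 11 of these genes rose and 1 fell in AsPC-1 (10.0% of all genes rose), 6 rose and 0 fell in BxPC-3 (3.13%), and 0 rose and 2 fell in T3M-4. Without an sgCDK1 library the rises were 6 or 7 in AsPC-1 and 2 or 3 in BxPC-3, and no gene fell in T3M-4. AURKA, the Aurora A kinase, passed in all 3 lines, higher in AsPC-1 (1.01 ± 0.11, limma adjusted p = 6.66e-06) and BxPC-3 (0.29 ± 0.07, limma adjusted p = 0.0274) and lower in T3M-4 (-0.33 ± 0.08, limma adjusted p = 0.0106). CKS2, a small CDK-binding protein, did the same (0.62, 0.32 and -0.31). PLK1 (0.95), CCNA2 (0.53), CCNF (0.76), CDC25A (0.46) and CDC25C (0.58) passed in AsPC-1 and in no other single line. CDK7 (0.03), CKS1B (0.05), MASTL (0.14) and ARPP19 (0.00) did not pass across the lines.

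The inhibitors held 1 rise that was seen in every line. CDKN1A was at 23.1, 24, 27.6 and 27.9 TPM in AsPC-1 sgRosa and 39.4 and 35.4 TPM in sgCDK1, and in T3M-4 at 85.4, 89, 95.5 and 81.3 TPM against 120.0 and 114 TPM. In BxPC-3 it was at 145, 149, 156 and 151 TPM against 179.6 and 172 TPM. The CFPAC-1 libraries labelled sgCDK1 held 71.7 and 68.5 TPM against 56.1, 38.6, 64.9 and 54.2 TPM. No groups overlapped, and CDKN1A rose across lines (0.39 ± 0.07, limma adjusted p = 0.00125; 0.39 without CFPAC-1). Among single lines it passed in AsPC-1 (limma adjusted p = 0.0173) and T3M-4 (limma adjusted p = 0.00415). Both sgCDK1 libraries lay above all controls in every line for 0.627% of all genes. Set directly against sgRpa3 with CFPAC-1 included, CDKN1A did not pass. The INK4 genes CDKN2C (-0.29) and CDKN2D (-0.37), inhibitors of CDK4 and CDK6, fell across the lines. CDKN2C was at 11.7, 11.7, 10.1 and 9.89 TPM in AsPC-1 sgRosa against 6.28 and 7.65 TPM. The checkpoint kinase CHEK2 (0.26) and PKMYT1 (0.37) rose across 4 lines, and PKMYT1 did not pass without CFPAC-1 (0.39 ± 0.14, limma adjusted p = 0.0784). WEE1 (0.15), CHEK1 (0.26), CDKN3 (0.12), CDKN1B (-0.11), CDKN1C (-0.07), GADD45A (-0.09), GADD45B (-0.32) and PPP2R2D (0.01) did not pass over the 4 lines. GADD45B, a stress-induced growth arrest gene, fell in AsPC-1 (-1.21 ± 0.12, limma adjusted p = 3.47e-06).

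The list of 54 G2/M genes tested holds CDK1, CCNB2, AURKA and CDC25C too. Of them 41 rose and 1 fell in AsPC-1 (median 0.66, all genes 0.04, of which 10.0% rose and 6.79% fell). In BxPC-3 17 rose and 2 fell (median 0.24, all genes -0.02, of which 3.13% rose and 2.07% fell). In T3M-4 0 rose and 12 fell (median -0.16, all genes 0.12, of which 4.38% fell). After scaling 20 of the list fell there, and 1 did when only sgCDK1 and sgRosa were fitted. Leaving out single libraries gave 32 to 42 rises in AsPC-1, 5 to 17 rises in BxPC-3 and 4 to 17 falls in T3M-4, with the fewest in each without sgCDK1 replicate 1. No G2/M gene passed in the CFPAC-1 libraries labelled sgCDK1 (median 0.02). HMMR, a spindle-associated hyaluronan receptor, was at 97.7, 81.5, 95.6 and 65.8 TPM in AsPC-1 sgRosa and 247 and 246 TPM in sgCDK1 (1.54 ± 0.13, limma adjusted p = 5.98e-07). BxPC-3 sgRosa held 68.2, 52.7, 59.2 and 43.3 TPM against 126 and 111 TPM (1.09 ± 0.13, limma adjusted p = 5.69e-05). In T3M-4 HMMR was at 96.9, 90.4, 84.4 and 93 TPM against 77.7 and 99.5 TPM, which overlap. UBE2C, the ubiquitin-conjugating enzyme of the anaphase-promoting complex, was at 299, 302, 275 and 246 TPM in AsPC-1 sgRosa and 549 and 516 TPM in sgCDK1 (0.93 ± 0.08, limma adjusted p = 5.98e-07). UBE2C in BxPC-3 was at 332, 319, 330.1 and 349.9 TPM against 553 and 568 TPM (0.75 ± 0.08, limma adjusted p = 1.09e-05). Neither pair of groups overlapped. NEK2, a centrosomal kinase, rose in both (1.06 and 0.55). Over 4 lines 13 rose and 2 fell (median 0.19, all genes 0.05), one of the falls being CDK1, beside 9.37% and 3.03% of all genes. Without CFPAC-1 15 rose and 2 fell. Without AsPC-1 0 rose and 1 fell, and without BxPC-3 1 rose and 1 fell. With single libraries left out 3 to 17 rose, and 3 rose without sgCDK1 replicate 1 of AsPC-1 or of BxPC-3.

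The promoters of such genes are known for the cell cycle genes homology region (CHR), TTTGAA, to which the DREAM and MuvB complexes bind. Promoter windows were the 250 bases before each gene's start, from RefSeq (GRCh38.p14), and TTTGAA was searched on both strands. Of the 45 G2/M genes with a window 24 held it (53.3%), against 8.17% of the 8569 tested genes with a window and 13.6% of all 27305 windows. The windows of CCNB2 (chr15:59104896-59105145) and HMMR (chr5:163460382-163460631), both on the plus strand, are shown because these genes passed as higher in AsPC-1 and BxPC-3 and did not in T3M-4. Capitals mark TTTGAA, present once in CCNB2 and as 2 adjoining copies in HMMR.
CCNB2: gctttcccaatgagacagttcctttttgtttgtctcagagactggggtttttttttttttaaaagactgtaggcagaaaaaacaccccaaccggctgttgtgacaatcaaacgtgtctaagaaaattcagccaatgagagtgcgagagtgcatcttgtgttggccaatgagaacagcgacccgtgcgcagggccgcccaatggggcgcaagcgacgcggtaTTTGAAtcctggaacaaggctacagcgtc
HMMR: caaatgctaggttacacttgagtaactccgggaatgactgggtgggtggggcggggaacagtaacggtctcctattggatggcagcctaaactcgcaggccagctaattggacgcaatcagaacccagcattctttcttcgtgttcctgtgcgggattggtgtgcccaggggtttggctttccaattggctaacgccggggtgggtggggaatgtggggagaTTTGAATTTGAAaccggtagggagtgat

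The S phase list had 18 of 42 genes higher and 2 lower in AsPC-1 (median 0.29), and 7 higher and 0 lower in BxPC-3 (median 0.19). In T3M-4 0 were higher and 18 lower (median -0.31, and 30 lower after scaling). Fitted with only sgCDK1 and sgRosa, T3M-4 had 1 lower gene among all genes tested. All genes stood at 10.0% higher and 6.79% lower in AsPC-1, 3.13% and 2.07% in BxPC-3, and 10.6% and 4.38% in T3M-4. The BxPC-3 sgRosa libraries were themselves spread, with list medians between -0.23 and 0.27 around their mean and sgCDK1 within them at 0.22 and 0.19. Leaving out single libraries gave 4 to 19 rises in AsPC-1 (4 without sgCDK1 replicate 1), 0 to 10 rises in BxPC-3 (0 without each sgCDK1 library in turn) and 7 to 24 falls in T3M-4 (9 and 7 without each sgCDK1 library). Across the lines 1 rose and 2 fell, with and without CFPAC-1, the falls being WDR76 (-0.26) and the deubiquitinase USP1 (-0.22), beside 9.37% of all genes higher and 3.03% lower. Of 29 mitotic exit and cytokinesis genes 16 rose in AsPC-1 (10.0% of all genes) and 5 in BxPC-3 (3.13%). In T3M-4 0 of them rose and 3 fell (10.6% and 4.38% of all genes). The counts were 10 and 11 in AsPC-1 and 0 and 2 in BxPC-3 without sgCDK1 replicates 1 and 2. Across the lines 2 rose (4 without CFPAC-1), beside 9.37% of all genes. These were the kinesin KIF4A (0.31) and SGO1 (0.27), the protector of cohesin. Of 28 DNA damage response genes 14 rose in AsPC-1, 1 in BxPC-3 and 0 in T3M-4, and the AsPC-1 count was 4 without each sgCDK1 library in turn. Across the lines 5 rose (5 without CFPAC-1, and 3 without sgCDK1 replicate 1 of AsPC-1 or of BxPC-3), beside 9.37% of all genes. The 1 rise of 28 in BxPC-3 stood near the 3.13% of all genes there, beside 10.0% in AsPC-1 and 10.6% in T3M-4. XRCC2 (0.51), BRCA1 (0.32) and FANCD2 (0.31), which act in homologous recombination and crosslink repair, rose over the 4 lines. Of 21 other cell cycle CDKs, cyclins and regulators 5 rose and 0 fell over the lines (5 and 0 without CFPAC-1), beside 9.37% and 3.03% of all genes. RBL1, the pocket protein p107, came first (0.44), then CCND3 (0.32), CDK6 (0.28) and LIN54 (0.22), the DNA-binding subunit of MuvB.

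**Figure D2:**
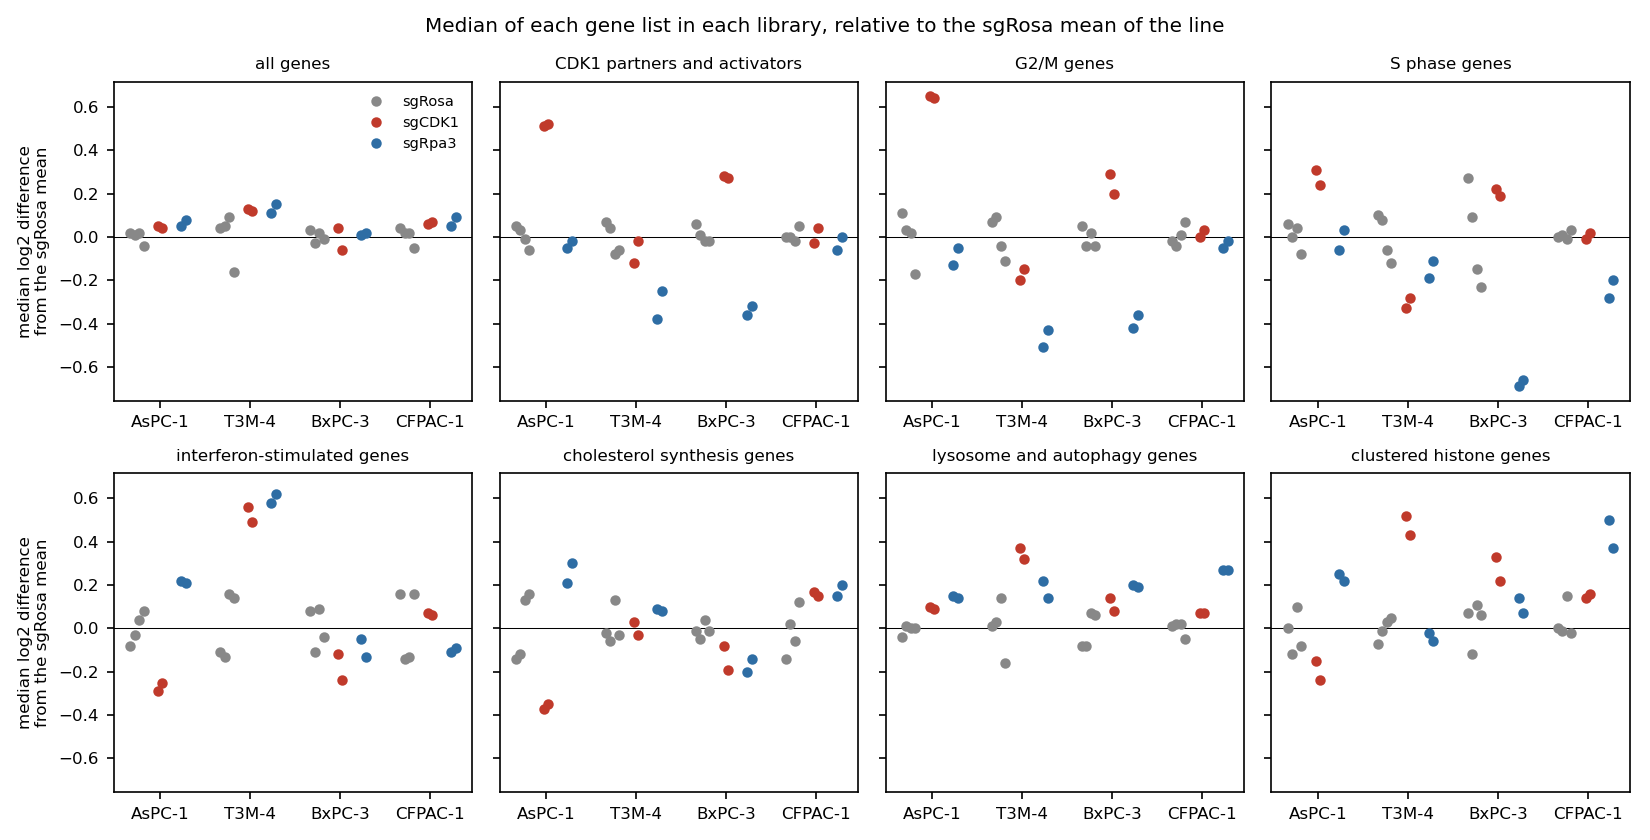
Each point is 1 library and shows the median, over the genes of a list, of the log2 difference from the sgRosa mean of its line (sgRosa, sgCDK1 and sgRpa3 as labelled). The G2/M median of the sgCDK1 libraries is 0.65 and 0.64 in AsPC-1, 0.29 and 0.20 in BxPC-3 and -0.20 and -0.15 in T3M-4, and the interferon median is -0.29 and -0.25 in AsPC-1 and 0.56 and 0.49 in T3M-4.

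Interferon-stimulated genes moved in opposite directions in AsPC-1 and T3M-4. In T3M-4 26 of 41 rose and 0 fell (median 0.50; 10.6% of all genes rose), 17 rose after scaling, and 0 passed when only sgCDK1 and sgRosa were fitted. With 1 library left out 12 to 29 rose, with 12 and 15 without each sgCDK1 library. In AsPC-1 0 rose and 14 fell (median -0.28; 6.79% of all genes fell), with 7 and 8 falls without each sgCDK1 library, and in BxPC-3 1 rose and 2 fell (median -0.17). IFI6, an interferon-induced mitochondrial protein, was at 79.6, 80.4, 139 and 114 TPM in T3M-4 sgRosa and 301 and 345 TPM in sgCDK1 (1.67 ± 0.29, limma adjusted p = 0.00157). In BxPC-3 it was at 98.9, 83.7, 72.5 and 69.9 TPM against 52.9 and 41.4 TPM, with no overlap, but did not pass (-0.77 ± 0.36, limma adjusted p = 0.24). OAS2, which makes the activator of RNase L, was at 59.6, 61.4, 92.8 and 81.7 TPM in T3M-4 sgRosa and 215 and 191 TPM in sgCDK1 (1.47 ± 0.15, limma adjusted p = 3.87e-05). XAF1 (1.52), IFI27 (1.52) and MX1 (1.42) rose there too. ISG15, a ubiquitin-like modifier, was at 202, 215, 227 and 245 TPM in AsPC-1 sgRosa and 109 and 103 TPM in sgCDK1 (-1.06 ± 0.13, limma adjusted p = 1.94e-05). In T3M-4 ISG15 was at 1245, 1206, 1377 and 1601 TPM against 1540 and 1636 TPM, which overlap. The sgRpa3 libraries of T3M-4 held 245 and 458 TPM of IFI6 and 198 and 227 TPM of OAS2, also above every sgRosa library, so these rises were not particular to sgCDK1. Over 4 lines 5 rose and 0 fell (5 and 0 without CFPAC-1, and 1 to 6 rises without single libraries, the fewest without T3M-4 sgCDK1 replicate 1), beside 9.37% of all genes higher. These were EPSTI1 (0.58), OAS2 (0.53), DTX3L (0.25), PSMB8 (0.18) and BST2 (0.17).

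The interferon-stimulated response element is known as the site of ISGF3 and IRF factors. Its core, GAAA and GAAA with any 2 bases between them, was searched on both strands in the same windows and was present in 18 of 33 interferon-stimulated genes with a window (54.5%) and in 2.31% of tested genes. The windows of IFI6 (chr1:27672193-27672442, minus strand) and IFI27 (chr14:94110486-94110735, plus strand), among the 4 largest rises in T3M-4, are shown with each match in capitals. IFI6 holds 3 matches, and IFI27 holds 2, of which 1 reads on the opposite strand.
IFI6: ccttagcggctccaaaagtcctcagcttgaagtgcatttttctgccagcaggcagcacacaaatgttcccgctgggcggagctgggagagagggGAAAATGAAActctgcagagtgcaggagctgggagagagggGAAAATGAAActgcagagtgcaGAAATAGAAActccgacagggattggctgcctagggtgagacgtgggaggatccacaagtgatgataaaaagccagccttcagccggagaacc
IFI27: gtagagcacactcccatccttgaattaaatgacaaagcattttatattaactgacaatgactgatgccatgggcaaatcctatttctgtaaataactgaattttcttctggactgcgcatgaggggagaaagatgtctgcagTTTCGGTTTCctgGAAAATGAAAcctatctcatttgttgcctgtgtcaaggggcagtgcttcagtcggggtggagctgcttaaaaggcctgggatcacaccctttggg

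**Figure D3:**
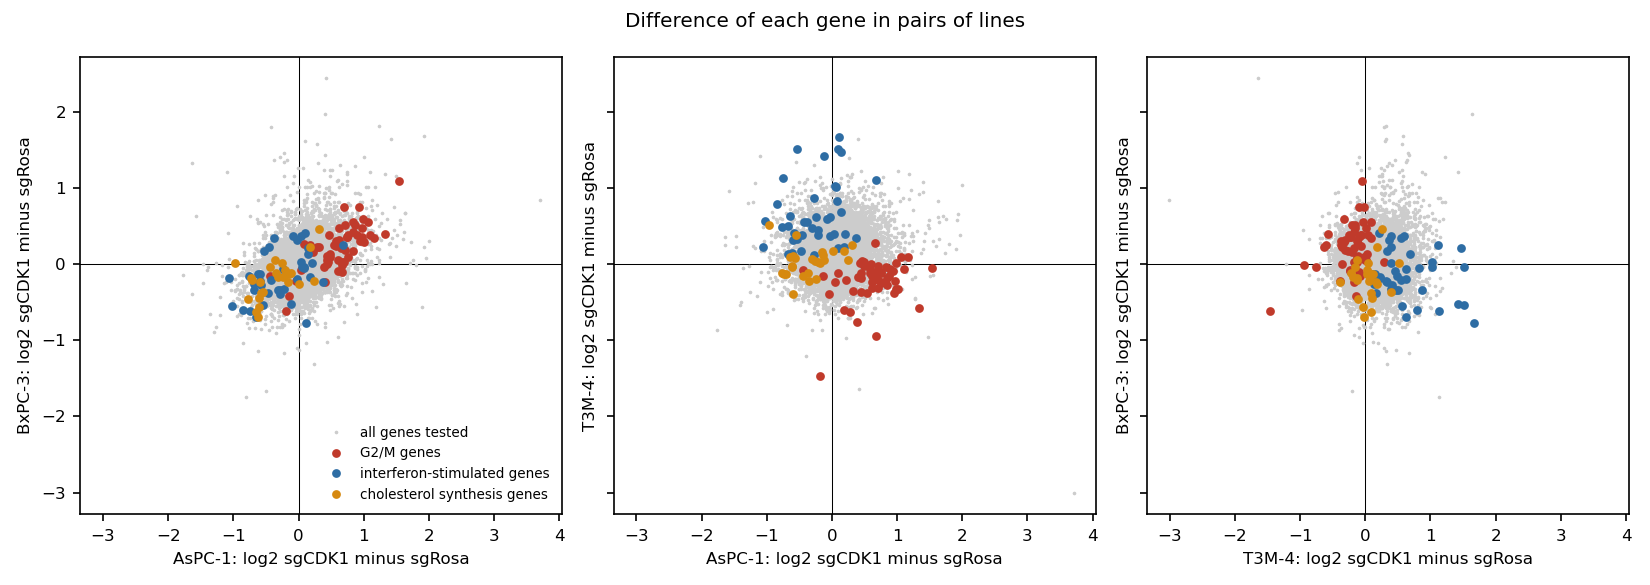
Each point is a gene and shows the log2 difference of sgCDK1 from sgRosa in 1 line against that in another, with G2/M, interferon-stimulated and cholesterol synthesis genes coloured over all 10851 genes. G2/M genes have a median of 0.66 in AsPC-1, 0.24 in BxPC-3 and -0.16 in T3M-4, and interferon-stimulated genes -0.28, -0.17 and 0.50.

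Cholesterol synthesis genes fell in AsPC-1, with 13 of 26 lower and 0 higher (median -0.36; 6.79% of all genes fell). Without single libraries 4 to 14 fell, with 4 and 6 without each sgCDK1 library. In BxPC-3 4 fell and 1 rose (2.07% and 3.13% of all genes), and in T3M-4 1 fell and 2 rose (4.38% and 10.6%). Over 4 lines 3 fell and 1 rose, beside 3.03% and 9.37% of all genes, and without CFPAC-1 9 fell and 1 rose. CYP51A1, the lanosterol demethylase, was at 131, 125, 157 and 171 TPM in AsPC-1 sgRosa and 83.2 and 85.7 TPM in sgCDK1 (-0.77 ± 0.12, limma adjusted p = 0.000205). In BxPC-3 it was at 95.8, 87.1, 83.8 and 79.6 TPM against 63.3 and 61.8 TPM (-0.46 ± 0.09, limma adjusted p = 0.00524), again with no overlap. HMGCS1, the synthase before HMG-CoA reductase, fell in both (-0.61 and -0.56). Over the lines the thiolase ACAT2 fell (-0.30). In T3M-4 16 of 35 ribosome biogenesis genes fell and 0 rose (median -0.26; 4.38% of all genes fell). It was 23 after scaling and 4 to 18 without single libraries, the fewest without sgCDK1 replicate 1. Fitted with only sgCDK1 and sgRosa, T3M-4 had 1 lower gene among all genes tested. In the main fit the nucleolar methyltransferase fibrillarin (FBL) fell there (-0.60 ± 0.09, limma adjusted p = 0.000697). In AsPC-1 2 rose and 1 fell (10.0% and 6.79% of all genes), and in BxPC-3 0 rose and 0 fell (3.13% and 2.07%). FBL (-0.20), WDR12 (-0.19) and NOP10 (-0.18) fell across the lines, with 3 falls without CFPAC-1 as well.

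Lysosome and autophagy genes rose across lines, 13 of 29 with 0 lower (median 0.16; 9.37% of all genes rose), 12 without CFPAC-1 and 9 after scaling. Set directly against sgRpa3 with CFPAC-1 included, 0 of them were higher in sgCDK1 and 2 lower (median -0.06). In T3M-4 16 rose (7 after scaling, 5 and 4 without each sgCDK1 library), in AsPC-1 4 rose and 2 fell, and in BxPC-3 2 rose. Cathepsin B (CTSB), a lysosomal protease, was at 398, 421, 399 and 386 TPM in AsPC-1 sgRosa and 559 and 534 TPM in sgCDK1 (0.45 ± 0.06, limma adjusted p = 4.46e-05), and in T3M-4 at 214, 216, 243 and 209 TPM against 341 and 309 TPM (0.56 ± 0.08, limma adjusted p = 0.000483). TFEB (0.36), the transcription factor of lysosomal genes, the proton pump subunit ATP6V0D1 (0.29) and MAP1LC3B (0.26) passed over the lines. Of 13 clustered histone genes 5 rose across lines and 0 fell (4 and 0 without CFPAC-1), beside 9.37% and 3.03% of all genes. In AsPC-1 2 rose and 1 fell with a median of -0.33, and in T3M-4 6 rose with a median of 0.45. For this list and the lysosome list above, all genes stood at 10.0% higher and 6.79% lower in AsPC-1. The share of all genes higher was 10.6% in T3M-4 and 3.13% in BxPC-3. When only sgCDK1 and sgRosa were fitted, 2 of all genes passed as higher in T3M-4. HIST1H2BC was at 4.89, 3.11, 4.22 and 3.34 TPM in AsPC-1 sgRosa and 12.2 and 15.6 TPM in sgCDK1. HIST1H2BD was at 215, 214, 220.2 and 216 TPM in T3M-4 sgRosa and 309.5 and 344 TPM in sgCDK1. Both were above all their controls, and HIST1H2BK (0.33) and HIST2H4A (0.30) passed over the lines. Histone genes have near-identical copies and the libraries selected polyadenylated RNA, so these levels are uncertain.

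Smaller groups were mixed. Of 28 AP-1 and immediate early genes 5 rose across 4 lines, beside 9.37% of all genes. These were IER5, FOS (0.45), ETV5 (0.33), DUSP6 (0.28) and KLF10 (0.17), and without CFPAC-1 4 of the list were higher and 2 lower. But 10 fell and 1 rose in AsPC-1 (6.79% and 10.0% of all genes), while 9 rose and 0 fell in T3M-4 (10.6% and 4.38%). The median of the list in T3M-4 was 0.27, against 0.12 for all genes. When only sgCDK1 and sgRosa were fitted, 2 of all genes passed as higher in T3M-4. IER5 was above every sgRosa library in all 4 lines (0.51 ± 0.07, limma adjusted p = 0.000415; 0.59 without CFPAC-1), in AsPC-1 at 22.7 and 20.4 TPM against 11.1, 11, 11.2 and 11.1 TPM. NF-kB and secretory cytokine genes had 7 of 25 higher in T3M-4 (10.6% of all genes). In AsPC-1 2 were higher and 5 lower (10.0% and 6.79% of all genes), and in BxPC-3 4 were lower (2.07%). Over the lines 2 rose, with and without CFPAC-1, TNFAIP2 (0.38) and the apoptosis inhibitor BIRC3 (0.37), a share below the 9.37% of all genes. Of 18 integrated stress response genes 5 fell in AsPC-1 (6.79% of all genes) and none passed over 4 lines. Without CFPAC-1 1 was higher and 5 lower (9.19% and 3.93% of all genes). Of 29 YAP and cytoskeletal genes TPM2, a tropomyosin, rose (0.36) and AJUBA fell (-0.30), and without CFPAC-1 2 rose and 3 fell. Of 12 basal-like genes CTSV (0.81), KRT15 (0.63) and FAM83A (0.44) rose, and of 8 classical genes SPINK4 (0.96) and TFF2 (0.36), beside 9.37% of all genes. Without CFPAC-1 3 basal-like genes rose and 1 fell, and 3 classical genes rose and 0 fell. CDH1, encoding E-cadherin, rose (0.38), and of the 8 epithelial markers 1 rose and 2 fell without CFPAC-1. KLF5, the lineage factor at the centre of the series, was at -0.05 over the lines, at 0.43 in T3M-4 (limma adjusted p = 0.0339) and at -0.47 in BxPC-3 (limma adjusted p = 0.0162).

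In 68 genes (0.627%) both sgCDK1 libraries lay above all 4 sgRosa libraries in every line, and in 13 (0.120%) below, and all of them passed the threshold. PKP1, a desmosomal plakophilin, came first among the rises (0.92 ± 0.18, limma adjusted p = 0.00276; 1.11 without CFPAC-1). In AsPC-1 and in CFPAC-1, however, it passed the minimum of 1 TPM only through its sgCDK1 libraries. It was at 0.397, 0.439, 0.348 and 0.337 TPM in AsPC-1 sgRosa and 5.23 and 3.87 TPM in sgCDK1. In T3M-4 it was at 3.91, 4.69, 3.74 and 1.3 TPM against 8.14 and 7.1 TPM, and in BxPC-3 at 52.9, 47.3, 48.6 and 47.1 TPM against 67.2 and 54.2 TPM. In CFPAC-1 it was at 1.13, 0.876, 1.29 and 0.608 TPM against 1.4 and 1.54 TPM. The lysosomal protease CTSF was at 10.9, 10.6, 14.2 and 12.9 TPM in T3M-4 sgRosa against 20.4 and 17.6 TPM, and in BxPC-3 at 1.77, 0.962, 2.16 and 1.87 TPM against 4.01 and 4.03 TPM (0.65 ± 0.09, limma adjusted p = 0.000464; 0.70 without CFPAC-1). TBC1D8, of the Rab GTPase-activating family, was at 18.5, 17.1, 20.9 and 18.5 TPM in BxPC-3 sgRosa against 39.3 and 31.4 TPM (0.63 ± 0.08, limma adjusted p = 0.000169 over the lines; 0.72 without CFPAC-1). The other 9 of the 12 largest were LOC107987290 (0.84, at the minimum only through sgCDK1 in CFPAC-1), IL17RE (0.75), VASN (0.74), WFDC2 (0.64), PRAG1 (0.63), LBH (0.63), CASTOR3 (0.60), MICALL2 (0.59) and FRMD8 (0.56). The Wnt inhibitor DKK1 was below every control in each line (-0.44 ± 0.07, limma adjusted p = 0.000554; -0.50 without CFPAC-1), in AsPC-1 at 109.6 and 107 TPM against 154, 144, 170.4 and 179.8 TPM and in BxPC-3 at 141 and 143 TPM against 246, 216, 187 and 188 TPM. MRPL48, a mitochondrial ribosomal protein (-0.47), was at 31.8 and 36.2 TPM in AsPC-1 sgCDK1 against 66.3, 71.7, 62.5 and 72 TPM. TRMT112, a methyltransferase cofactor (-0.33), was at 275 and 281 TPM there against 413, 409.8, 379 and 411 TPM. The other falls named were FH (-0.27), CCT5 (-0.23), ANXA7 (-0.20), XRCC5 (-0.19), EIF4A1 (-0.19), WDR12 (-0.19), NDUFB8 (-0.17), RMDN1 (-0.17) and PSMC2 (-0.17).

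Leaving CFPAC-1 aside, 297 genes (2.74%) were above all sgRosa libraries in the other 3 lines, 285 (2.63%) of them past the threshold, and 87 (0.802%) were below and past it. The same rule, extended to these lines after the CFPAC-1 values were seen, named SPINK4 (1.4), UPK2 (1.34), DEFB1 (1.22), CTSV (1.12), PKP1 (1.11), ARL6IP1 (1.07), LRG1 (1.06), GGT1 (0.99), ACSF2 (0.98), CA12 (0.97), IL17RE (0.95) and VASN (0.91). ARL6IP1, which shapes the endoplasmic reticulum, was at 485, 448, 462 and 440.0 TPM in AsPC-1 sgRosa and 1293 and 1277 TPM in sgCDK1. In T3M-4 it was at 290.0, 265, 263 and 283 TPM against 391 and 430.4 TPM, and in BxPC-3 at 342, 286, 327 and 342 TPM against 718 and 733 TPM. All 3 lines showed no overlap. In CFPAC-1, ARL6IP1 was at 414 and 409 TPM in the libraries labelled sgCDK1, within their controls (417, 401, 422 and 448 TPM), and at 770.5 and 696 TPM in those labelled sgRpa3. The sgRpa3 libraries of AsPC-1 held 479 and 456 TPM. CTSV, cathepsin V, was at 10.2, 7.46, 9.54 and 9.39 TPM in BxPC-3 sgRosa against 33.5 and 35.6 TPM (1.81 ± 0.16, limma adjusted p = 2.31e-06). Carbonic anhydrase CA12 was at 10.4, 11.7, 11.2 and 10.4 TPM in AsPC-1 sgRosa against 23.8 and 23.2 TPM. The falls after CDK1 were LRP8 (-0.57), MRPL48 (-0.54), NT5C (-0.52), ANXA3 (-0.51), DKK1 (-0.50), AMIGO2 (-0.50), TRIB3 (-0.49), FDXACB1 (-0.49), TNNT1 (-0.49), CYP51A1 (-0.45) and C17orf49 (-0.43).

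**Figure D4:**
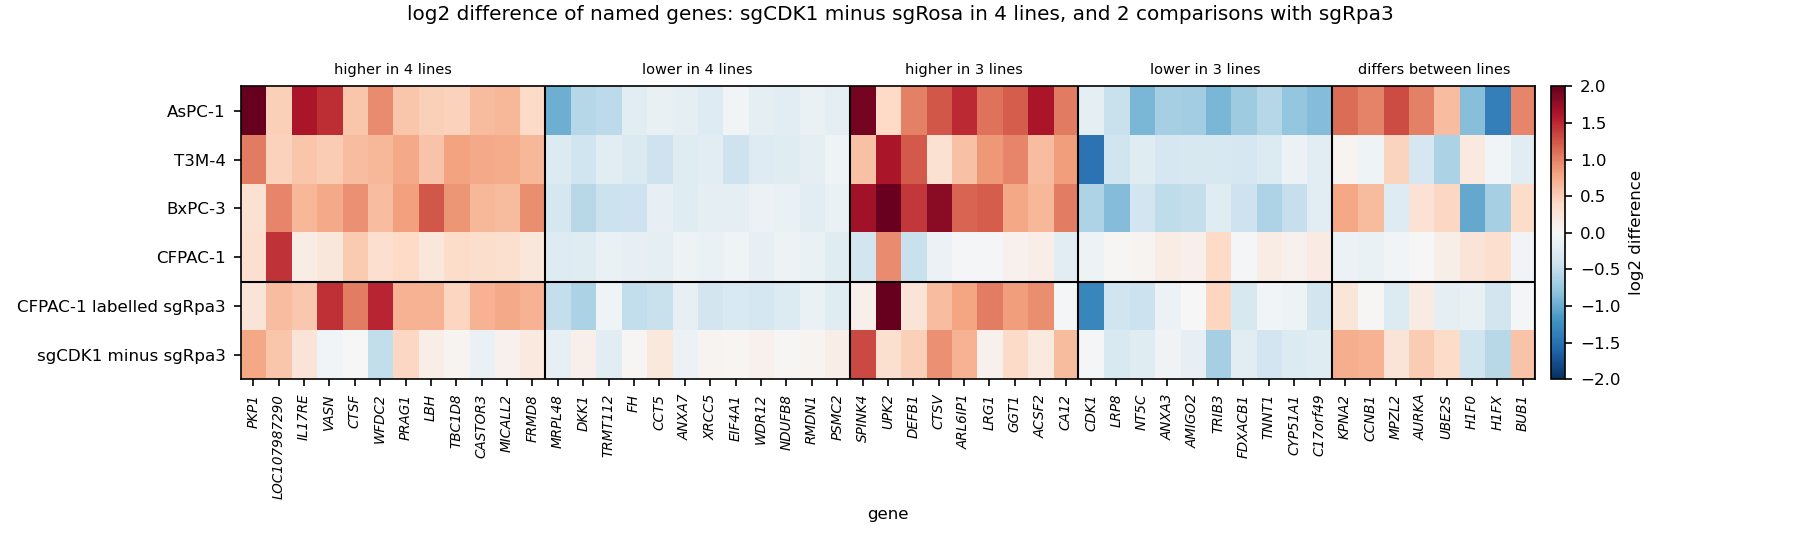
The heat map gives the log2 difference of each gene named by the rules in the 4 lines, in the CFPAC-1 libraries labelled sgRpa3 against sgRosa, and in sgCDK1 minus sgRpa3, with colours clipped at -2 and 2. ARL6IP1 is at 1.49 in AsPC-1, -0.04 in the CFPAC-1 libraries labelled sgCDK1 and 0.79 in those labelled sgRpa3.

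In single lines, the largest called rises in AsPC-1 were PKP1 (2.00, tested through its sgCDK1 libraries), EEF1A2 (1.96), KLK7 (1.90) and UNC5B (1.80), and the largest falls DHRS2 (-1.64), MT1F (-1.58), CTGF (-1.47) and CCDC107 (-1.47). In T3M-4 they were IFI6, UPK2 (1.64), XAF1 and IFI27, and CDK1, CENPV (-1.21), PSRC1 (-0.76) and STAMBPL1 (-0.73). UPK2, a urothelial membrane protein, was at 24.1, 21.8, 20.3 and 8.51 TPM in T3M-4 sgRosa against 67.8 and 47.4 TPM. The centromere protein CENPV was at 4.09, 3.34, 4.43 and 3.61 TPM in T3M-4 sgRosa against 0.838 and 1.38 TPM. In BxPC-3 they were UPK2 (1.97), CTSV, SPINK4 (1.68) and OTULINL (1.65), and ZNF121 (-1.10), FGFBP1 (-1.03), H1F0 (-1.03) and ARNTL2 (-0.93). For a difference between lines, 1050 genes (9.68%) were called with sgCDK1 libraries on opposite sides of their controls in at least 2 lines. CFPAC-1, where no gene passed, counts among these lines, and no count was made without it. The 8 with the smallest p were KPNA2, CCNB1, MPZL2, AURKA, UBE2S, H1F0, H1FX and BUB1 (limma F test adjusted p from 7.32e-07 to 4.22e-06). CCNB1 lay below all its controls only in CFPAC-1. The linker histone H1F0 was at 353, 378, 317 and 342 TPM in AsPC-1 sgRosa against 181 and 204 TPM, and in BxPC-3 at 265, 226, 267 and 264 TPM against 129.7 and 119 TPM. In the CFPAC-1 libraries labelled sgCDK1 it was at 306 and 313 TPM against 264, 232, 273 and 264 TPM. H1F0 was thus below its controls in the former lines and above them in CFPAC-1. KPNA2, an importin, was at 182, 180.0, 177 and 169 TPM in AsPC-1 sgRosa against 393 and 371 TPM, and at 476 and 463 TPM in the CFPAC-1 libraries labelled sgCDK1 against 504, 516, 496 and 505 TPM.

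Set directly against sgRpa3, 852 genes (7.85%) differed by limma, 396 higher in sgCDK1 (3.65%) and 456 lower (4.20%). It was 1883 genes without CFPAC-1, 214 without AsPC-1, 13 without BxPC-3 and 0 with lines as replicates (213 at an unadjusted p under 0.05). After scaling the split was 504 higher and 384 lower. G2/M genes were higher in sgCDK1 in 35 of 54 and lower in 0 (median 0.39, all genes -0.02). Without CFPAC-1 43 were higher and 1 lower, without AsPC-1 8 were higher, and without BxPC-3 2 were higher. The count was 23 to 40 without single libraries, with 23 without replicate 1 of BxPC-3 sgCDK1 or sgRpa3. CCNB1 (0.69 ± 0.14, limma adjusted p = 0.0136) and HMMR (1.03 ± 0.25, limma adjusted p = 0.0227) were among them, and in AsPC-1 HMMR was at 247 and 246 TPM in sgCDK1 against 64.4 and 80.3 TPM in sgRpa3. In CFPAC-1 the order was the other way, at 79.4 and 72 TPM in the libraries labelled sgCDK1 and 112 and 108 TPM in those labelled sgRpa3. Of the S phase genes 12 of 42 were higher and 0 lower, and 3 to 19 were higher without single libraries, the fewest without BxPC-3 sgRpa3 replicate 2. Measured from the sgRosa mean, the S phase median in AsPC-1 was 0.31 and 0.24 in sgCDK1 and -0.06 and 0.03 in sgRpa3. In T3M-4 the order was the other way, at -0.33 and -0.28 in sgCDK1 and -0.19 and -0.11 in sgRpa3. The G2/M median of sgRpa3 itself lay below the sgRosa mean in T3M-4 (-0.51 and -0.43) and AsPC-1 (-0.13 and -0.05). CDKN1A (-0.01 ± 0.10, limma adjusted p = 0.966), CDC25B (0.27 ± 0.12, limma adjusted p = 0.165), DKK1 (0.10 ± 0.12, limma adjusted p = 0.583) and CTSF (-0.01 ± 0.15, limma adjusted p = 0.98) did not pass. These values, the S phase counts and the genes named below include CFPAC-1 and are not given without it. A gene that did not pass is thus not shown to respond alike to both knockouts. The genes named by the rule as higher in sgCDK1 were ZBED2 (0.95), PKP1 (0.77), FABP5 (0.73), CDC20 (0.67), SKA3 (0.62), ANLN (0.61), CIP2A (0.60) and CDKN3 (0.60), of which CDC20, SKA3 and ANLN act in mitosis and cytokinesis. Those lower were PNRC1 (-0.79), MUC1 (-0.71), RBP5 (-0.71), CPT1B (-0.69), GBP2 (-0.68), CLDN3 (-0.68), TMC4 (-0.68) and NOXO1 (-0.67), of which MUC1 and CLDN3 encode apical and junctional epithelial proteins.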

How the data were processed

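Poly-A RNA-seq libraries were quantified by the authors with kallisto against hg38 and deposited as TPM per gene. The paper names a removal of low-abundance transcripts with its differential expression, at a limit not given in the sources used here. Whether it also applied to the deposited TPM is not stated. Each library sums to 1000000 TPM, so counts and depth are unknown, and the count test of the study's methods was replaced by limma (3.58.1, R 4.3.3) on log2(TPM + 1), with an intensity trend and Benjamini-Hochberg adjustment over 10851 genes. Columns were matched to samples by name, in 4 tables of which 75 libraries belong to the experiments used. The fit over lines used the 24 sgCDK1 and sgRosa libraries with line as a block, the comparison with sgRpa3 used 16, and the fit of each line used 17 to 20, all knockouts of its experiment included. Tables of the 4 lines were made separately, so sgCDK1 was tested only against libraries of its own table. No libraries were identical. The libraries were chosen by their labels, and the gene lists and their members were chosen with earlier results of these data known.

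Genes were named by rule: CDK1, its partners and its inhibitors, the 4 largest called differences of each other list, the 12 largest called rises and falls whose sgCDK1 libraries lay beyond all sgRosa libraries in all 4 lines, the 4 largest of each line, the 8 clearest differences between lines on opposite sides, and the 8 largest each way against sgRpa3 with no overlap in any line. MX1, BST2, KLF10 and KLF5, and values in single lines for list members, were added after values were seen. Tested on simulated data for 10851 genes with 200 changed by 1 on the log2 scale, the fit over lines recovered 98.5% with 4.83% of calls false, and the T3M-4 fit recovered 93.5%. For changes of 0.5 these were 93% and 42.5% recovered. The F test of a difference between lines recovered 78.5% of changes of 1 and 9.5% of changes of 0.5, the latter with 9.52% of calls false. Simulated noise was independent between genes and libraries, and the fit over lines was given the same change in every line. Shifts of whole libraries were not simulated. Replicate numbers did not pair the samples in every line (correlations of same-numbered deviations from -0.27 to 0.07 between sgCDK1 and sgRosa and, between sgCDK1 and sgRpa3, 0.18 in AsPC-1, 0.58 in T3M-4, -0.01 in BxPC-3 and 0.05 in CFPAC-1). The alternatives tried were log2(TPM + 0.1), every gene tested, a minimum mean of 5 TPM, scaling by the median of ratios, a replicate block, lines as replicates, only sgCDK1 and sgRosa, and leaving out each library or line. Figures were drawn with matplotlib 3.10.9. Some named genes are not reported here.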

Additional observations from a re-analysis of the deposited data

Results flagged for a closer look

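Among 120 groups of 4 sgRosa libraries examined for the genes whose library values are printed, 8 held a library far from the other 3, where chance gives about 1 in 20. The ratio of its gap to the range of the group was 0.888 for CDK1 in CFPAC-1 replicate 4 (236 TPM), 0.865 for CDC25B in T3M-4 replicate 4 (62.1 TPM), 0.845 for UBE2C in T3M-4 replicate 3 (324 TPM) and 0.84 for TBC1D8 in AsPC-1 replicate 4 (50.6 TPM). It was 0.869 for DKK1 in CFPAC-1 replicate 2 (757 TPM), 0.902 for TRMT112 in AsPC-1 replicate 3 (379 TPM), 0.899 for CA12 in T3M-4 replicate 4 (2.33 TPM) and 0.918 for H1F0 in BxPC-3 replicate 2 (226 TPM).

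The response to sgCDK1 differed between lines for 1845 genes by the limma F test. Among mitotic genes and the target the adjusted p was 1.85e-05 for CDK1, 7.47e-07 for CCNB1, 9.94e-05 for CCNB2, 3.58e-05 for HMMR, 3.87e-06 for UBE2C, 1.64e-06 for AURKA, 4.22e-06 for BUB1, 2.3e-06 for UBE2S, 7.32e-07 for KPNA2 and 0.00799 for CENPV. For interferon-stimulated genes it was 4.56e-05 for IFI6, 0.000208 for ISG15 and 0.00399 for OAS2. For histones it was 3.26e-06 for H1F0, 4.22e-06 for H1FX, 0.00818 for HIST1H2BC and 0.036 for HIST1H2BD. For the other genes it was 0.00399 for PKP1, 0.000815 for MRPL48, 0.018 for TRMT112, 4.22e-06 for CTSV, 0.00744 for CA12, 6.55e-08 for ARL6IP1, 0.00169 for CYP51A1, 0.00831 for CTSB, 0.0104 for IER5 and 7.47e-07 for MPZL2.

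The CFPAC-1 libraries labelled sgRpa3 differed from sgRosa in 1239 genes by limma, with CDK1 at -1.31 on the log2 scale. Whether their labels and those of the CFPAC-1 sgCDK1 libraries were exchanged was not tested.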

How the results depend on the processing

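No named gene that passed the threshold in the main fit or in the alternative changed direction. Direction was not checked for genes past it in neither, for differences between lines, or for genes named only without CFPAC-1. Over the 4 lines, 3804 checks of 106 named genes, each under each alternative, held their side of the threshold in 3209, lost it in 575 and gained it in 20. The 1346 genes of the fit over lines became 336 with a replicate block, 237 without AsPC-1 and 0 with lines as replicates (876 at an unadjusted p under 0.05; 0 and 611 without CFPAC-1). Leaving out single libraries gave 758 to 1512, and the count moved by over 1.5 times without AsPC-1 sgCDK1 replicates 1 (836) and 2 (848), BxPC-3 sgCDK1 replicate 1 (758) and T3M-4 sgCDK1 replicate 1 (801). The 1845 genes that differed between lines became 1189 with a replicate block, 353 without AsPC-1 and 3062 without the 2 sgRosa libraries that stand apart, and 927 to 2604 without single libraries. The lowest of these were without AsPC-1 sgCDK1 replicate 1 (927) and 2 (1103), BxPC-3 sgCDK1 replicate 2 (1054) and T3M-4 sgCDK1 replicate 2 (1153). The 852 genes against sgRpa3 became 525 with no filter, 48 with a replicate block, 0 with lines as replicates, 214 without AsPC-1, 13 without BxPC-3 and 1883 without CFPAC-1, and 331 to 1091 without single libraries. The 1825 genes of AsPC-1 became 4071 with a replicate block and 3733 with only sgCDK1 and sgRosa, and 604 to 1709 without single libraries (604 and 758 without each sgCDK1 library). The 1624 genes of T3M-4 became 3 with only sgCDK1 and sgRosa, and 448 to 2347 without single libraries (607 and 448 without each sgCDK1 library). The 565 genes of BxPC-3 became 862 after median-of-ratios scaling, and 89 to 558 without single libraries (89 and 131 without each sgCDK1 library, 361 and 370 without sgRosa replicates 3 and 4). The 0 genes of the CFPAC-1 libraries labelled sgCDK1 became 5 with no filter and 1 with a replicate block, and 0 without any single library. Alternatives without AsPC-1 or the libraries that stand apart, for the difference between lines, were chosen after seeing the data. A group of 2 left with 1 library is assumed to vary like the others. Values in TPM keep no depth, so low genes carry an unknown counting error.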
